A study of Bos taurus with 16 samples.

Results

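Keratins are the intermediate filament proteins of epithelial cells, and the genes described here are 10 of them in the rumen papillae of beef steers: KRT5, KRT14, KRT15, KRT17, KRT19, KRT36, KRT4, KRT10, KRT8 and KRT18. They were chosen by symbol, as every row of the deposited coverage table that is annotated as an exon of one of these genes. All 10 were listed, among 12070 genes with an exon region. Their names stood on 71 of 113050 exon regions of a single gene, of which 64 lie on chromosomes 5 and 19. The other 7 carry the KRT8 name on chromosome 10 and were kept apart, as described below. The papillae are the projections of the rumen wall that take up the products of fermentation, and they were clipped from 16 crossbred steers aged 344 ± 48 days with 1 RNA-seq library per animal. Steers were placed by body weight gain and dry matter intake in 4 groups of 4: high-gain high-intake, high-gain low-intake, low-gain high-intake and low-gain low-intake. No group was treated, and all steers ate the same ration of 57.35% corn, 30% distillers grains, 8% alfalfa, 4.25% supplement and 0.4% urea without restriction.

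A keratin filament is built from a type I and a type II protein that pair with each other, and the pair changes as an epithelial cell matures. In stratified epithelia KRT5 (type II) and KRT14 (type I) form the filaments of the basal layer, KRT15 marks basal cells, and KRT4 or KRT10 replace them in the layers above. KRT8, KRT18 and KRT19 belong to simple epithelia, where cells form a single layer, and KRT17 and its partners of the KRT6 group are known from hair follicles and wounded or fast-growing epidermis. KRT36 is a type I keratin of hair that is also known from the papillae of the tongue in mouse and human. The rumen lining is a stratified, cornified epithelium, so all of these classes could be looked up in it.

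A gene's level is the average read coverage, per base, of its best covered exon region, and the authors scaled it so that library totals are close to equal. The exon regions in the file are stretches of continuous coverage, and those of the abundant keratins run through introns, so that a level per base is diluted by intron and the levels of different genes are only roughly comparable. Estimated depth was 11.8 to 21.2 M reads per library. In 5 libraries first exons were thinly covered over the whole transcriptome: the median of log2 first exon over other exons in 993 genes was -2.71 to -1.88 there, against -1.24 to -0.41 in the other 11. These 5 were high-gain high-intake replicate 4, high-gain low-intake replicates 2, 3 and 4, and low-gain low-intake replicate 3. High gain held 4 of them and low gain 1, and high intake held 1 and low intake 4, so the comparisons of the groups are given with all libraries and without these 5. The tissue label was checked against markers. Involucrin (IVL), a cornified envelope protein, stood at 31.1 to 589, and the basal regulator TP63 at 16.2 to 84.0. The hair keratins KRT35, KRT85 and KRT31 were listed at 0 in 11, 11 and 14 of the 16 libraries. Markers of the cornified and upper layers were not all like IVL. Loricrin (LOR), 1 of them, was listed at 0 in 15 libraries. By median, TGM3 (55.4), TGM1 (37.2) and CNFN (5.36) were covered, while SBSN (1.54), KRT10 (1.00) and KRT4 (0.395) were low.

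The keratins spanned a wide range of abundance. By the median of 16 libraries, coverage per base was 885 for KRT17, 352 for KRT14, 211 for KRT5 and 153 for KRT15. It was 15.4 for KRT19, 3.81 for KRT36 and 2.02 for KRT8. It was 1.00 for KRT10, 0.40 for KRT4 and 0 for KRT18. Among neighbours in this order, only KRT15 was above the next gene, KRT19, in all 16 libraries, and the ranges of all neighbours overlapped. KRT17 was above KRT14 in 11 libraries, which were all but the 5 low in first exons, and below it in those 5. KRT14 was above KRT5 in 13 libraries, KRT5 above KRT15 in 12, KRT19 above KRT36 in 12, KRT36 above KRT8 in 11, KRT8 above KRT10 in 12, KRT10 above KRT4 in 13 and KRT4 above KRT18 in 9.

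**Figure D1:**
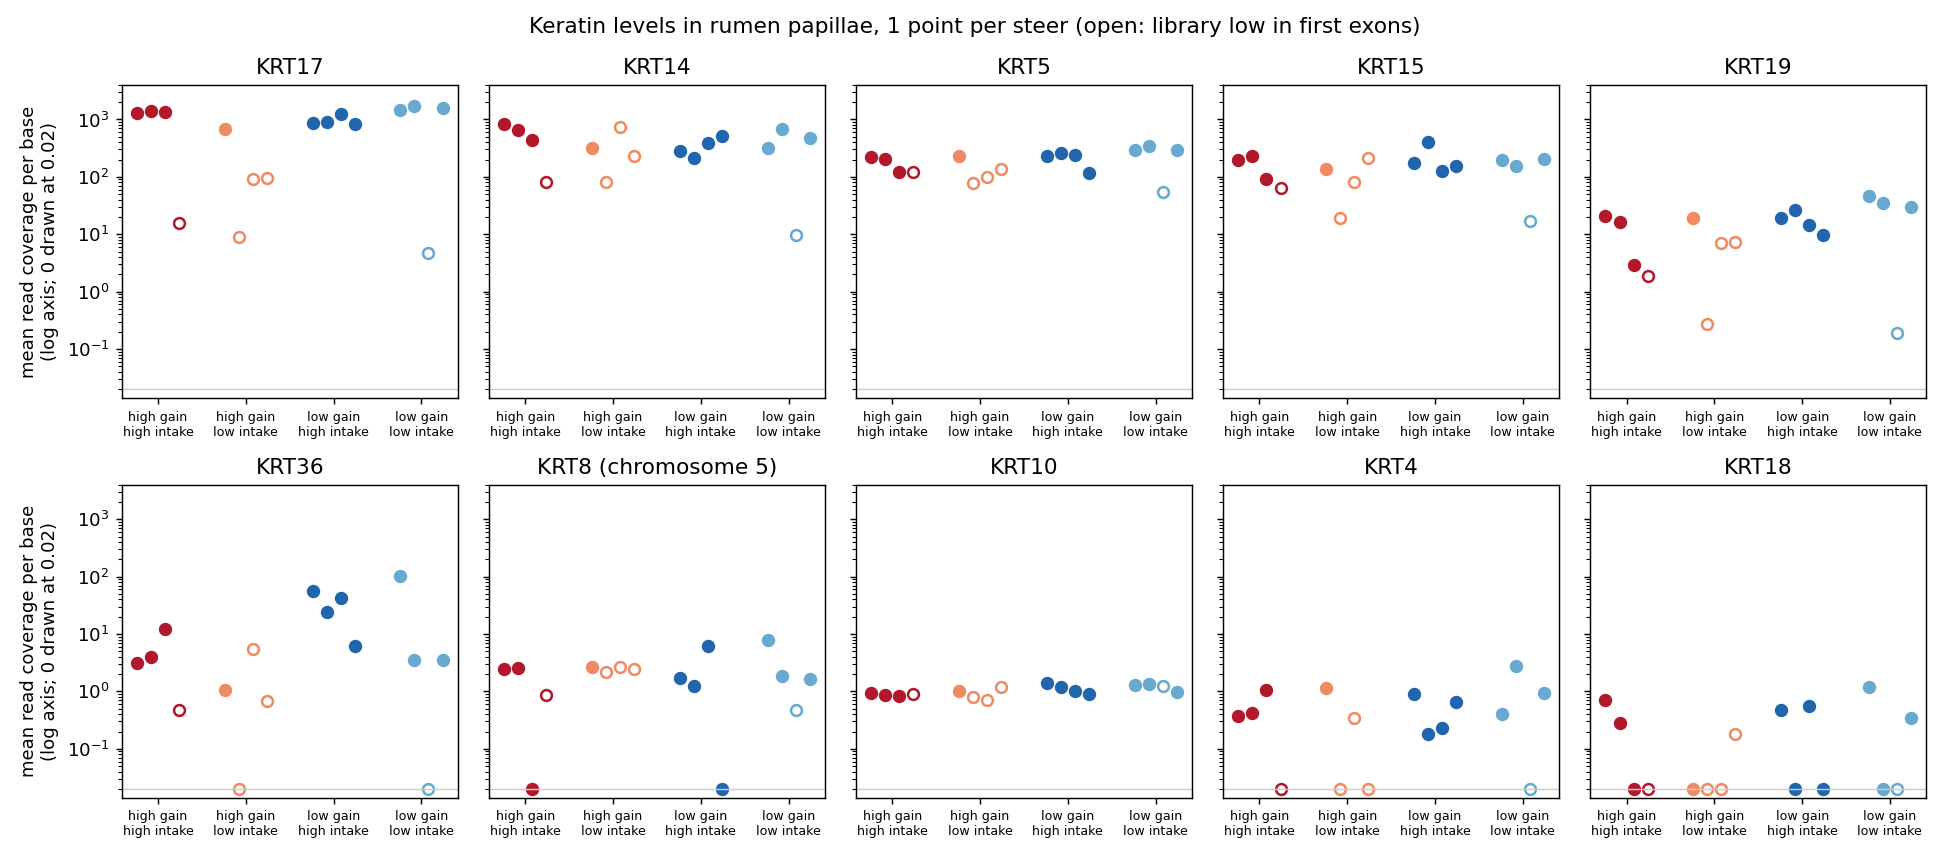
Mean read coverage per base (log axis) of the best covered exon region of each of the 10 keratins in the 4 groups of steers. Each point is 1 steer, open points are the 5 libraries low in first exons, and values of 0 are drawn at 0.02. KRT17 lies at 4.63 to 97.4 in the open points and at 689 to 1735 in the filled ones, whereas KRT10 stays between 0.71 and 1.39.

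KRT17, a type I keratin of activated epidermis, was the most abundant of the 10. Its region spans exons 4 to 7 (chr19:42473580-42475588, UMD3.1). Coverage was 1295, 1422, 1338 and 15.95 in high-gain high-intake steers, 689, 8.95, 90.3 and 97.4 in high-gain low-intake steers, 851, 918, 1249 and 848 in low-gain high-intake steers, and 1448, 1735, 4.63 and 1570 in low-gain low-intake steers. The low values were those of the 5 libraries low in first exons, and the 2 sets of libraries did not overlap. Among the other 11, high-gain high-intake steers (1295 to 1422) and low-gain low-intake steers (1448 to 1735) had the higher values in this region. They lay above low-gain high-intake steers (848 to 1249) and the 1 high-gain low-intake steer left (689). The order did not hold in exons 7 to 9, where high-gain high-intake replicate 3 (995) lay below low-gain high-intake replicate 3 (1228). In exons 2 to 4, high-gain high-intake steers among the 11 (690 to 984) overlapped with low-gain high-intake steers (595 to 887).

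KRT14, the type I keratin of basal cells, was read at exons 6 to 8 (chr19:42430190-42431064). It had 841, 664, 436 and 80.2 in high-gain high-intake steers, 319, 80.4, 744 and 233 in high-gain low-intake steers, 288, 213, 384 and 509 in low-gain high-intake steers, and 319, 686, 9.83 and 467 in low-gain low-intake steers. All groups overlapped. A library low in first exons, high-gain low-intake replicate 3, had the second highest value of all in this region. In the other region of the gene, exons 1 to 6, KRT14 did set the 5 libraries low in first exons (2.61 to 106.55) apart from the other 11 (159.86 to 626.97).

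KRT5, its type II partner, was covered as 1 stretch from within exon 1 to exon 9, introns included (chr5:27541924-27547613), beside a separate region in exon 1 (chr5:27541210-27541830). It had 220, 202, 120 and 120 in high-gain high-intake steers, 232, 79.1, 99.8 and 140 in high-gain low-intake steers, 227, 257, 242 and 116 in low-gain high-intake steers, and 292, 349, 53.8 and 290 in low-gain low-intake steers. By the best covered region KRT5 varied least of the 4 abundant keratins, with an SD of 87.2 around a mean of 190 (n = 16). The SD was 249 around 392 for KRT14, 93.8 around 154 for KRT15 and 626 around 849 for KRT17. The separate exon 1 region of KRT5 was not even, and ran from 0.63 to 421.52 around a mean of 168.

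KRT15, a type I keratin of basal cells, was read at exon 8 (chr19:42356329-42357479). Its levels were 193, 229, 92.2 and 64.1 in high-gain high-intake steers, 139, 19.1, 82.0 and 217 in high-gain low-intake steers, 176, 400, 127 and 153 in low-gain high-intake steers, and 199, 153, 17.3 and 208 in low-gain low-intake steers. Its lowest values, 17.3 and 19.1, were in the 2 low-intake groups, both in libraries low in first exons. The highest, 400, was that of low-gain high-intake replicate 2, where the rest of the group had 127 to 176. All 4 groups overlapped.

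KRT19, a small type I keratin of simple and glandular epithelia, was read at exons 4 to 6 (chr19:42366660-42367703). It had 20.8, 16.3, 2.89 and 1.86 in high-gain high-intake steers, 19.4, 0.27, 6.93 and 7.28 in high-gain low-intake steers, 18.9, 26.3, 14.5 and 9.86 in low-gain high-intake steers, and 47.1, 35.7, 0.19 and 30.0 in low-gain low-intake steers. The 3 highest values were those of low-gain low-intake steers. The lowest value, 0.19, was in the same group, in its library low in first exons.

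KRT36 spread over the widest range relative to its level. At its exon 5 (chr19:42327089-42327224) it had 3.1, 4.05, 12.2 and 0.48 in high-gain high-intake steers, 1.06, 0, 5.45 and 0.69 in high-gain low-intake steers, 56.2, 24, 42.5 and 6.30 in low-gain high-intake steers, and 102, 3.51, 0 and 3.58 in low-gain low-intake steers. Every low-gain high-intake steer lay above every high-gain low-intake steer, and 1 low-gain low-intake steer was higher than any other. That steer, replicate 1, also held the highest KRT8, KRT18, KRT19 and KRT35 of the 16. In bulk tissue, fewer cells that use a gene and less of its RNA per cell cannot be told apart.

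The other 4 keratins were thinly covered. KRT8, the type II keratin of simple epithelia, had 2.46, 2.60, 0 and 0.87 in high-gain high-intake steers, 2.66, 2.19, 2.70 and 2.45 in high-gain low-intake steers, 1.73, 1.24, 6.08 and 0 in low-gain high-intake steers, and 7.79, 1.85, 0.47 and 1.62 in low-gain low-intake steers (exon 4, chr5:27217889-27217974). KRT18, its type I partner, reached 1.19 and was listed at 0 in 9 libraries. KRT4, the type II keratin of the upper layers of mucosa, lay between 0 and 2.73 and was listed at 0 in 4 libraries, of which all were low in first exons. KRT10, the type I keratin of the upper layers of epidermis, was read at exons 6 to 7, intron included (chr19:41664307-41665321). It lay between 0.71 and 1.39 there, the most even of the 10 best covered regions. Its other regions had means of 0.0575 to 0.30, and each was listed at 0 in 4 to 13 libraries. Over all exon regions of a gene, KRT10 had an estimated 26 to 42 reads per library, KRT4 0 to 33, KRT18 0 to 22 and KRT8 2 to 310, against 1058 to 262786 for KRT17. KRT18 was too low to be tested.

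A second place in the file carries the KRT8 name. It lies on chromosome 10, all 7 of its regions are labelled exon 1, and its best region (chr10:73629076-73629272) had 32.0, 34.5, 28.9 and 5.06 in high-gain high-intake steers, 53.6, 1.4, 21.5 and 26.2 in high-gain low-intake steers, 62.6, 51.2, 46.9 and 27.0 in low-gain high-intake steers, and 70.5, 76.4, 0.20 and 58.6 in low-gain low-intake steers. The RefSeq gene table (assembly ARS-UCD2.0) places KRT8 on chromosome 5, and there the file has exons 1 to 9 of it. The chromosome 10 locus was therefore kept apart. How reads that match both places were assigned is not given in the sources used here, and the same holds for the near-identical stretches of KRT14, KRT17 and other type I keratins.

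Together the 10 keratins took 0.123% to 3.91% of all exon coverage, with a median of 2.34%. The share was 3.14%, 3.49%, 2.63% and 0.298% in high-gain high-intake steers, 1.71%, 0.217%, 0.808% and 0.780% in high-gain low-intake steers, 2.29%, 2.39%, 2.59% and 2.17% in low-gain high-intake steers, and 3.28%, 3.91%, 0.123% and 3.38% in low-gain low-intake steers. All values under 1.71% came from the 5 libraries low in first exons. KRT17 alone held a median of 1.38%, KRT5 0.387%, KRT14 0.318% and KRT15 0.158%, and KRT36 0.00203%.

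**Figure D2:**
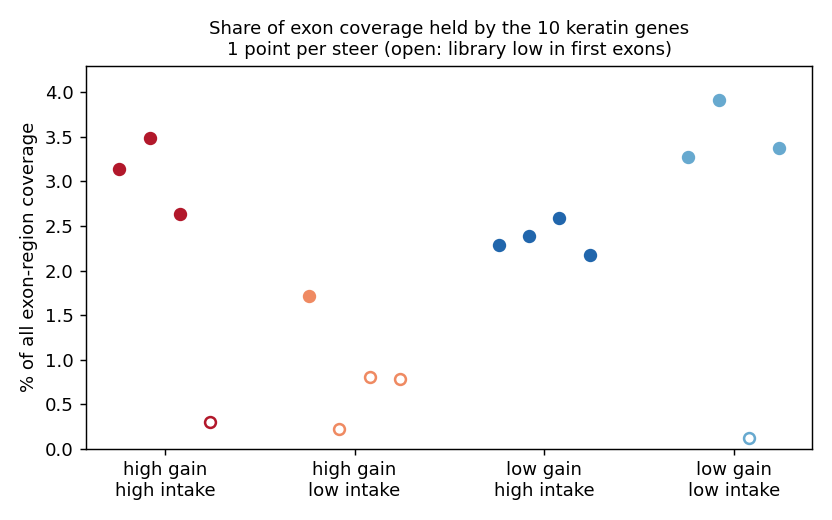
Share of all exon-region coverage (%) held by the 10 keratin genes, 1 point per steer in the 4 groups, with open points for the 5 libraries low in first exons. The open points lie at 0.123% to 0.808% and the filled ones at 1.71% to 3.91%.

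How a keratin's own coverage ran from its first to its last exon region set the same libraries apart. For KRT5 the separate region in exon 1 had 0.796% to 14.8% of the coverage of the region from exon 1 to exon 9 in the 5 libraries and 62.0% to 134% in the other 11. The first of these regions can hold several exons: exons 1 to 6 for KRT14, 1 to 7 for KRT15 and 1 to 2 for KRT36. For KRT14 the ratio of the first to the last region was 8.41% to 29.6% in the 5 and 35.1% to 93.5% in the other 11. For KRT15 it was 26.8% to 46.9% in the 5 and 51.6% to 81.5% in the other 11, and for KRT36 4.31% to 13.9% in 4 of the 5 that had coverage and 28.2% to 43.2% in the other 11. None of these 4 genes had an overlap between the 2 sets. KRT19 did overlap, with 0% to 63.0% in the 5 and 23.0% to 66.3% in the other 11, where the 63.0% came from a library with a level of 0.27. KRT17 went against the others: its first-exon region, 4277 bases long and running into intron, had 1.42% to 3.75% of the last region's coverage in the 5 and 0.909% to 2.31% in the other 11. What made the first exons of these libraries thin was not tested.

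**Figure D3:**
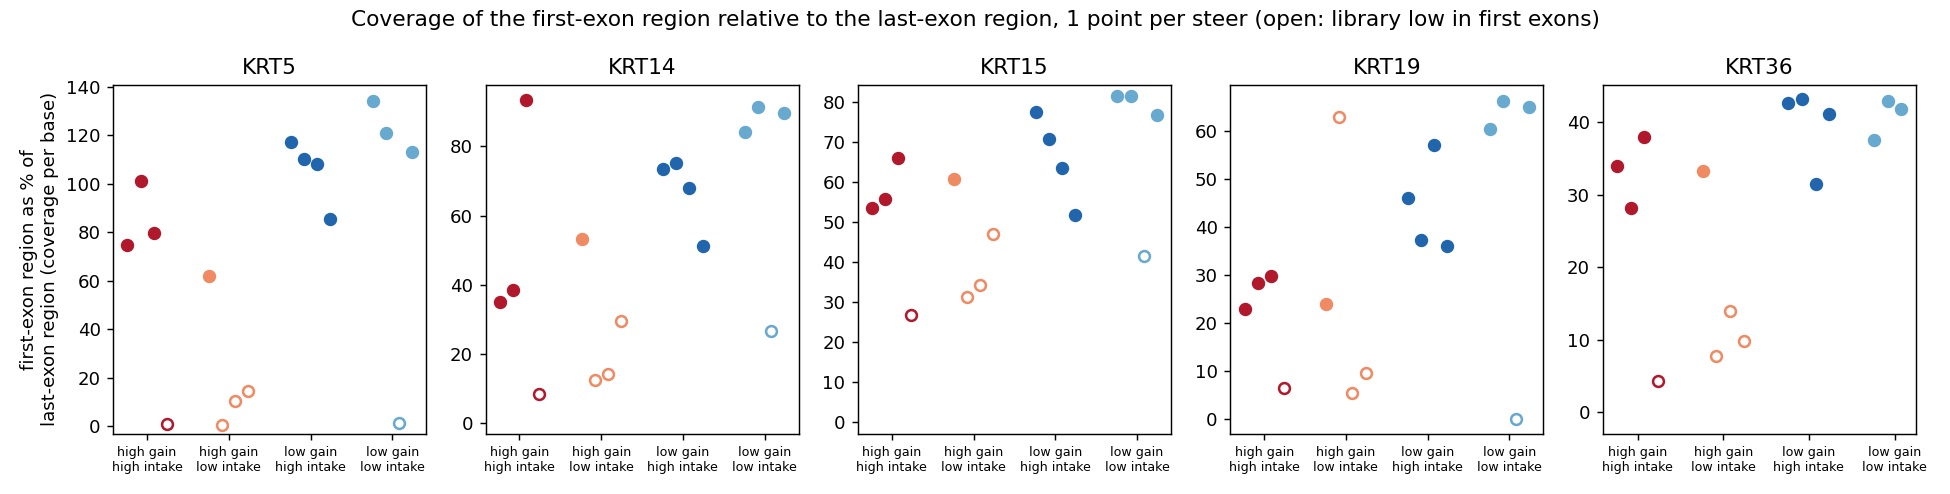
Coverage of the first-exon region as a percentage of the last-exon region (coverage per base) for KRT5, KRT14, KRT15, KRT19 and KRT36, 1 point per steer in the 4 groups, with open points for the 5 libraries low in first exons. The first-exon region spans exons 1 to 6 in KRT14, 1 to 7 in KRT15 and 1 to 2 in KRT36, and the last-exon region of KRT5 runs from exon 1 to exon 9. For KRT5 the open points lie at 0.796% to 14.8% and the filled ones at 62.0% to 134%.

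The first comparison asks how the papillae of steers with high gain differ from those with low gain, over both levels of intake. Of the 10 keratins 9 could be tested, KRT18 being too low, and 0 passed at an adjusted p under 0.05 (limma, Benjamini-Hochberg over 9503 tested genes). The background was 0.0%, since no gene passed, with or without limma's trend and robust options. At an unadjusted p under 0.05 there were 0 of 9 keratins and 504 of 9503 genes (5.3%). KRT36 had the largest difference, with 3.38 ± 4.05 at high gain and 29.7 ± 35.6 at low gain (SD, n = 8 each), log2 difference -2.50 (SE 1.22, limma adjusted p = 0.847). All 8 high-gain steers lay below the low-gain median of 15.2. The same held for KRT5, KRT10 and KRT19 at their own low-gain medians (249, 1.21 and 22.6). The share of all tested genes that did so was not counted. The ranges at high and low gain overlapped for all 9 keratins, where 0.0316% of all tested genes had none. KRT17 had a mean of 620 ± 645 at high gain and 1078 ± 551 at low gain (log2 -1.60, SE 1.36). KRT19 had 9.46 ± 8.19 at high gain and 22.8 ± 15 at low gain (log2 -1.31, SE 1.08), and KRT5 152 ± 58.3 at high gain and 228 ± 97.6 at low gain (log2 -0.50, SE 0.38). KRT14 leaned the other way, with 425 ± 297 at high gain and 360 ± 204 at low gain (log2 0.35, SE 0.81). The differences of KRT4 (log2 -0.76), KRT15 (-0.45), KRT10 (-0.35) and KRT8 (0.05) did not pass either. In all, 7 of 9 were below 0, with a median of -0.50, where 46.1% of all tested genes were above 0 and their median was -0.04.

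Without the 5 libraries low in first exons, 61 of 9269 genes passed for gain (0.658%), and no keratin was among them. The high-gain low-intake group then holds 1 steer, which is assumed to vary like the other groups. KRT36 kept its size at log2 -2.71 (SE 1.02, limma adjusted p = 0.294), and KRT17 shrank to -0.35 (SE 0.15, limma adjusted p = 0.365). With the first-exon index as a covariate instead, KRT36 was at -0.47 (SE 0.96). In that fit 882 of 9503 genes passed (9.28%), and KRT17 (log2 1.49, SE 0.24, limma adjusted p = 0.0151) and KRT14 (log2 2.01, SE 0.44, limma adjusted p = 0.0206) were among the 768 that were higher (8.08%). The sign of KRT17 at high gain thus depended on how those libraries were treated, and so did the lean of the set: 7 of 9 keratins then lay above 0, with a median of 0.61, against -0.31 with 2 of 9 above 0 when the 5 libraries were left out. Leaving out low-gain low-intake replicate 3 alone gave 71 genes for gain, again with no keratin.

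**Figure D4:**
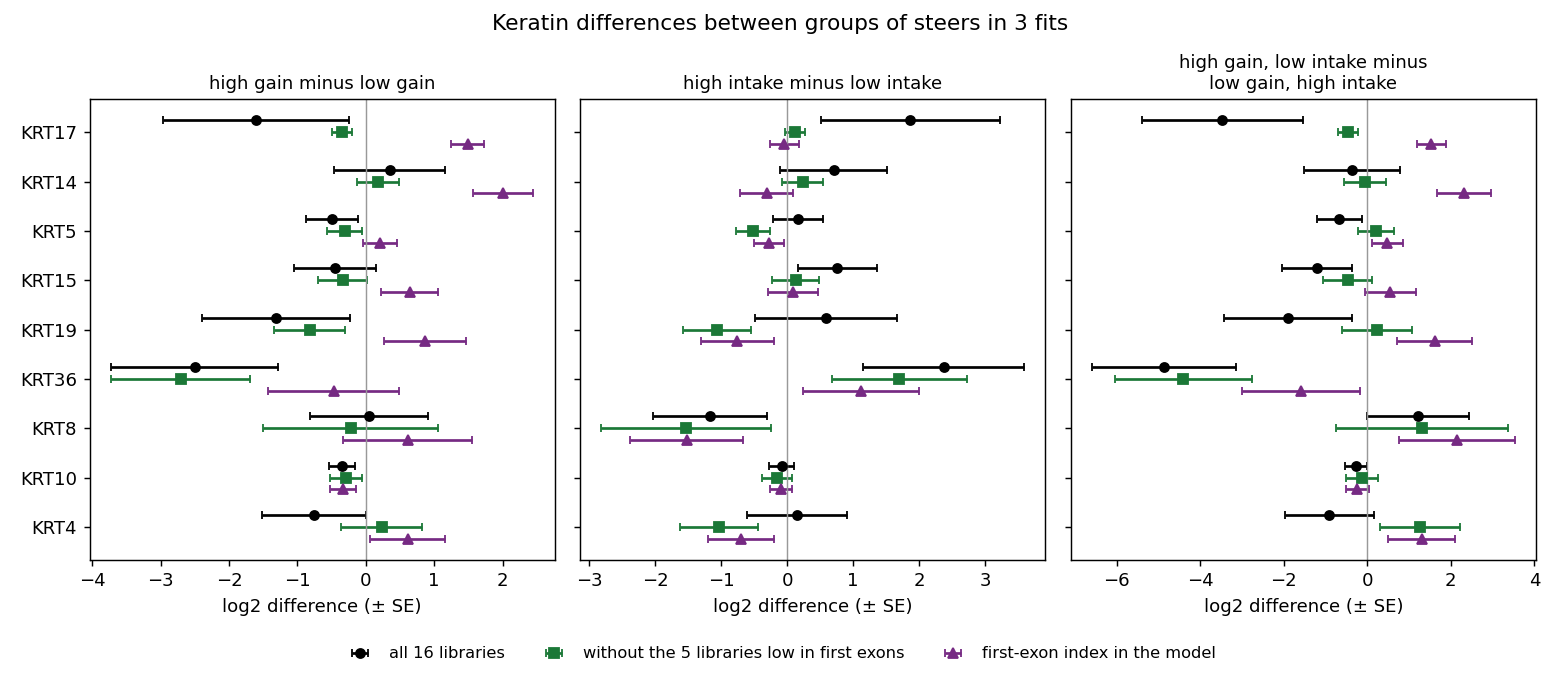
Log2 difference (± SE) of each of the 9 tested keratins for high gain minus low gain, high intake minus low intake, and high-gain low-intake steers minus low-gain high-intake steers, in limma fits of all 16 libraries, without the 5 libraries low in first exons, and with the first-exon index as a covariate. For gain, KRT17 lies at -1.60, -0.35 and 1.49 and KRT36 at -2.50, -2.71 and -0.47 in the 3 fits.

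For intake, over both levels of gain, no keratin passed either (background 0.0% of 9503 genes, limma). The unadjusted count was 0 of 9 keratins and 781 genes (8.22%). KRT36 had 18.6 ± 20.7 at high intake and 14.5 ± 35.3 at low intake (SD, n = 8 each). On the log scale it was higher by 2.37 (SE 1.22, limma adjusted p = 0.530). Of 8 high-intake steers 7 lay above the low-intake median of 2.29, as 7 did for KRT17 (median 393). How many of all tested genes did so was not counted. All 9 keratins overlapped between high and low intake (0.0737% of all tested genes did not). KRT17 averaged 992 ± 457 at high intake and 705 ± 764 at low intake (log2 1.87, SE 1.36). KRT15 (log2 0.76), KRT14 (0.71), KRT19 (0.59), KRT5 (0.17) and KRT4 (0.15) also lay above 0, KRT10 (-0.08, or 0.02 under median-ratio scaling) lay close to 0, and KRT8 (-1.17, SE 0.86) below. Without the 5 libraries KRT36 was at 1.70 (SE 1.02) and KRT17 at 0.12 (SE 0.15), while KRT5 (-0.52, SE 0.26), KRT19 (-1.06, SE 0.52) and KRT4 (-1.03, SE 0.59) lay below 0. The median of the 9 was 0.59 with all libraries, with 7 above 0, against -0.01 over all genes. It turned to -0.15 without the 5 libraries, with 4 above 0, against -0.13 over all genes, and to -0.27 with the first-exon index as a covariate.

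The effect of gain did not pass as different between intake levels for any keratin (background 0.0% by adjusted p; 0 of 9 keratins and 49 genes, 0.516%, at an unadjusted p under 0.05). The interaction of KRT17 was 1.01 (SE 2.71) with all libraries and 1.70 (SE 0.30, limma adjusted p = 0.135) without the 5, where it rests on the 1 remaining high-gain low-intake steer.

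The last comparison sets high-gain low-intake steers, which gained well on less feed, against low-gain high-intake steers, which gained poorly on more. No gene passed after adjustment (background 0.0%, limma). KRT36 averaged 1.80 ± 2.47 in high-gain low-intake steers and 32.3 ± 21.8 in low-gain high-intake steers (SD, n = 4 each), log2 difference -4.87 (SE 1.72, limma adjusted p = 0.369). KRT17 averaged 221 ± 314 in high-gain low-intake steers and 966 ± 191 in low-gain high-intake steers (log2 -3.47, SE 1.92, limma adjusted p = 0.378). The groups did not overlap for these 2 of the 9 keratins, which is to be read against 29.0% of all tested genes. KRT36 was the only keratin at an unadjusted p under 0.05, as were 1277 of all tested genes (13.4%). KRT19 (log2 -1.90), KRT15 (-1.21), KRT4 (-0.91), KRT5 (-0.67), KRT14 (-0.36) and KRT10 (-0.27) lay below 0 and KRT8 (1.22) above. The high-gain low-intake group holds 3 of the 5 libraries low in first exons and the low-gain high-intake group none. Leaving those out, KRT36 was at 1.06 in the 1 high-gain low-intake steer, against 6.30 to 56.2 in low-gain high-intake steers. KRT17 was at 689 in that steer, against 848 to 1249 in low-gain high-intake steers. Without the 5 libraries the KRT36 difference was -4.41 (limma adjusted p = 0.387), and leaving out any 1 library it lay between -5.77 and -3.84, but with the first-exon index as a covariate it was -1.59 (SE 1.41). The KRT17 difference was -0.47 (SE 0.24, limma adjusted p = 0.495) without the 5 libraries and 1.53 (SE 0.35, limma adjusted p = 0.0812) with the covariate.

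Region by region, 30 of the 64 exon regions on chromosomes 5 and 19 could be tested, and none passed for gain or intake (limma, background 0.0% of 71016 regions). For gain 3 of them had an unadjusted p under 0.05 (background 9.8%): exons 1 to 2 of KRT36 (log2 -2.83, SE 0.94, limma adjusted p = 0.350), exons 3 to 4 of KRT36 (-2.17) and exon 1 of KRT19 (-2.57). For intake there were also 3 (background 6.21%), all of them regions of KRT36 at log2 2.12 to 2.44. The 4 KRT36 regions together ran from -2.83 to -2.11 for gain and from 2.12 to 2.44 for intake, on 1 side of 0 throughout. The regions of KRT14 lay on both sides: its exons 6 to 8 were at log2 0.35 and its exons 1 to 6 at -0.92 for gain. For KRT5 the separate region in exon 1 was at -2.50 and that from exon 1 to exon 9 at -0.50. When the 5 libraries low in first exons were left out, 1287 of 67510 regions passed for gain (1.91%), none of them a region of the 10 keratins, and 0.0% for intake. Regions of the 10 keratins at an unadjusted p under 0.05 then numbered 8 of 30 for gain (background 13.0%) and 3 of 30 for intake (background 5.96%). All 4 regions of KRT36 were among the 8, at -3.26 to -2.71, with exon 1 of KRT19 (-1.84), the separate exon 1 region of KRT5 (-0.95) and exons 2 to 4 (-0.62) and 4 to 7 (-0.35) of KRT17.

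Pairs of keratins were compared over the 11 libraries that were not low in first exons. Only KRT5 and KRT19 passed of 36 pairs, with r = 0.88 (permutation p = 0.00021, adjusted 0.0076) and rho = 0.86 (p = 0.0011, adjusted 0.041), and r was 0.81 without the 2 libraries farthest from the median of KRT5. KRT5 and KRT14, which pair in the filament, had r = -0.10 (permutation p = 0.76) and rho = -0.19 (p = 0.58). KRT5 and KRT8 reached r = 0.83 (permutation p = 0.0094, adjusted 0.11), which fell to -0.02 without 2 libraries, so it rests on those. By Pearson's r 19 of the 36 pairs passed with all 16 libraries, which include those low in first exons. Fewer pairs did so by rho. KRT5 and KRT14, for example, then had r = 0.65 (permutation p = 0.0055, adjusted 0.012) but rho = 0.27 (permutation p = 0.31, adjusted 0.43).

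The genes whose levels were most alike over the same 11 libraries were found among 9502 tested genes by Spearman's rho, as a description. For KRT5 they were FMOD, DKK3 and THY1 (rho 0.95 each), and for KRT14 CACNA1G (0.88), ADIPOR1 (0.85) and NAA40 (0.84). For KRT15 they were LIG1 (0.95), GLYCTK (0.94) and TMEM234 (0.92), and for KRT17 NDUFA13 (0.94), SFN (0.92) and DGCR14 (0.92). For KRT19 they were POLR1E (0.94), EIF6 (0.93) and MYADM (0.93), and for KRT36 TBC1D5 (0.91), DCUN1D3 (0.87) and H19 (0.86). The sparse KRT10, KRT8 and KRT4 had rho up to 0.94, 0.99 and 0.85. Libraries share their depth and coverage bias, and with 11 of them high rho values occur among 9502 genes.

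Another 23 keratin genes stood in the file, and 10 of them were tested. KRT6A, a type II partner of KRT17, was above all 10 keratins in median level, at 851 to 3380 with a median of 2051. By its share of all exon coverage it was below KRT17, with a median of 0.955% against 1.38%. It was also high in the libraries low in first exons, where it had 851 to 2793, unlike KRT17. It reached a mean of 2419 ± 658 at high gain and 1775 ± 504 at low gain (SD, n = 8 each), log2 0.46 (SE 0.24, limma adjusted p = 0.847). Of 8 high-gain steers 7 lay above the low-gain median of KRT6A, a count not taken over all tested genes. The KRT6A difference was 0.25 (SE 0.18) when the 5 libraries were left out. KRT78 (median 72.9), KRT80 (18.3) and KRT23 (7.25) followed, and the other 19 had medians from 0 to 0.545. None of the 10 passed for gain or intake. For gain 5 of 10 lay above 0, with a median of 0.04, where 46.1% of all tested genes did. For intake 9 of 10 lay above 0, with a median of 0.57, where 49.6% of all tested genes did, and without the 5 libraries 6 of 10 did, with a median of 0.08. KRT75, 1 of the 10, had an unadjusted p under 0.05 for intake (8.22% of all tested genes), at 1.82 ± 1.98 with high intake and 0.42 ± 0.556 with low intake.

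Keratin filaments are anchored at desmosomes, between cells, and at hemidesmosomes, to the basement membrane. Of 14 tested desmosome and linker genes 0 passed for gain, 8 lay above 0 and the median was 0.16, where all tested genes had 0.0% passing, 46.1% above 0 and a median of -0.04. For intake 8 of the 14 lay above 0 with a median of 0.21, against 49.6% and -0.01 over all tested genes. The medians were 0.02 for gain and 0.12 for intake without the 5 libraries. Of 5 tested hemidesmosome genes 0 passed in the fit of all 16 libraries. Their medians were -1.43 for gain and 1.19 for intake, which turned to -0.58 and 0.02 without the 5 libraries. For intake 3 of the 5 lay above 0. Integrin beta 4 (ITGB4), which binds the keratin network to the basal membrane, had 5.38 ± 5.94 at high gain and 17.3 ± 8.83 at low gain (log2 -3.29, SE 1.19, limma adjusted p = 0.847). The ITGB4 difference was -1.11 (SE 0.21) when the 5 libraries were left out. That fit holds 1 high-gain low-intake steer, so only the size of the difference is given for it here. With the first-exon index as a covariate it was -0.79 (SE 0.54, limma adjusted p = 0.364) and did not pass. Integrin alpha 6 (ITGA6), the partner of ITGB4, had the smallest p of the list for intake and lay the other way from the median. It had 8.37 ± 2.98 at high intake and 14.6 ± 5.79 at low intake (log2 -0.80, SE 0.26, limma adjusted p = 0.530). Of 16 tested epithelial transcription regulators 0 passed, with medians of -0.12 for gain and 0.26 for intake, and of 0.03 and 0.07 without the 5 libraries. The homeobox factor PITX1 had 17.9 ± 15 at high gain and 49.7 ± 20.8 at low gain (log2 -1.70, SE 0.52, limma adjusted p = 0.847), and was at -1.14 (SE 0.23) without the 5 libraries. With the first-exon index as a covariate, where 9.28% of all tested genes passed for gain, the calls in these lists were all higher at high gain. They were KRT78 (log2 1.26) and KRT80 (1.02) among the other keratins, JUP (1.48), PKP3 (1.21), EVPL (1.21) and PKP1 (1.15) among desmosome and linker genes, CD151 (1.09) and TFAP2A (1.62).

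Markers of other cells in the clipped tissue also varied. The summed level of 6 fibroblast markers was 132 to 193 in high-gain high-intake steers, 147 to 330 in high-gain low-intake steers, 140 to 290 in low-gain high-intake steers and 259 to 899 in low-gain low-intake steers. That of 5 smooth muscle markers was 2.1 to 37.3 in high-gain high-intake steers, 4.67 to 18.6 in high-gain low-intake steers, 32.4 to 41.6 in low-gain high-intake steers and 3.22 to 95.4 in low-gain low-intake steers. The sum of 5 endothelial markers did not overlap between high and low gain, by a narrow margin: it was 7.04 to 14.35 in high-gain high-intake steers and 7.03 to 14.47 in high-gain low-intake steers, against 16.6 to 22.9 in low-gain high-intake steers and 14.51 to 24.8 in low-gain low-intake steers. Of single tested genes 0.0316% did not overlap for gain, and no such share was taken for sums. High gain holds 4 of the 5 libraries low in first exons, and VWF, an endothelial marker, was listed at 0 in 5 libraries. The 4 leukocyte markers listed summed to 3.56 to 13.5 in high-gain high-intake steers, 2.50 to 9.20 in high-gain low-intake steers, 3.58 to 12.4 in low-gain high-intake steers and 4.95 to 26.7 in low-gain low-intake steers. The 6 simple-epithelium markers, KRT8, KRT18 and KRT19 included, summed to 54.4 to 72.1 in high-gain high-intake steers, 57.1 to 75.0 in high-gain low-intake steers, 42.0 to 69.4 in low-gain high-intake steers and 68.8 to 104.8 in low-gain low-intake steers. The 7 basal markers, KRT5, KRT14 and KRT15 included, summed to 343 to 1306 in high-gain high-intake steers, 247 to 980 in high-gain low-intake steers, 752 to 952 in low-gain high-intake steers and 197 to 1261 in low-gain low-intake steers. The 8 markers of the cornified layers summed to 277 to 711 in high-gain high-intake steers, 211 to 570 in high-gain low-intake steers, 530 to 671 in low-gain high-intake steers and 39.8 to 687 in low-gain low-intake steers. The part of cell makeup in the keratin levels was not tested.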

How the data were processed

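Polyadenylated RNA of 16 rumen papillae samples was sequenced as single reads of 50 bases, per the labels' protocols. The submitters' processing notes name TopHat2 2.08b and UMD3.1, a bovine genome build. Neither the annotation nor the coverage tool is given in the sources used here. The table lists 2351373 regions. Its deposited values are signal, which by their own steps are average coverage of each region per base, multiplied in each library by 1 scaling factor. They are not read counts, so no count test was run, and read numbers given are estimates.

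A gene's level is its exon region with the highest mean over 16 libraries. A symbol found on several chromosomes (72 symbols) was split by chromosome, a choice made after seeing the file, and 526 regions that touch exons of more than 1 gene were dropped. Genes that reached 0.5 in 4 or more libraries were tested on log2(value + 0.1) with limma 3.58.1 in R 4.3.3 (trend and robust), as 4 group means over 16 libraries, two-sided, with Benjamini-Hochberg adjustment at 0.05. Exon regions were fitted likewise. Correlations used 100000 permutations. Fold differences are on the log2(value + 0.1) scale, which understates those of low genes. The first-exon index is a median over genes with at least 6 exons, using single-exon regions with a mean of at least 2; libraries under -1.5 were called low. Each library is 1 steer, and replicates are numbered in accession order, so numbers pair nothing.

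The members, lists and tests were chosen with earlier results of these data known. All 10 keratins are named whatever their values; of other keratins at most 4, and of each further list at most 3, with the smallest unadjusted p per comparison, were open to naming, and the most alike genes are the 3 with the highest rho. The levels of KRT6A, KRT78, KRT80 and KRT23, and the list genes called only with the covariate, were named after their values were seen. Alternatives were other pseudocounts, no filter, other limma options, other exon regions, other scalings, the first-exon index as covariate, and leaving out libraries.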

Additional observations from a re-analysis of the deposited data

Results flagged for a closer look

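Of 40 sets of 4 steers checked (10 keratins in 4 groups), 5 held a steer whose gap to its nearest neighbour was a large part of the group's range (above Dixon's 95% critical value). Chance gives about 1 in 20 where values are normally distributed. KRT36 was at 101.69 in low-gain low-intake replicate 1, and the next steer of that group had 3.58. KRT17 was at 15.95 in high-gain high-intake replicate 4, where the next lowest had 1294.94. It was at 688.66 in high-gain low-intake replicate 1, where the next had 97.4, and at 4.63 in low-gain low-intake replicate 3, where the next lowest had 1447.52. In each of these 3 KRT17 groups the gap lies between libraries low in first exons and the others. KRT18 was at 0.18 in high-gain low-intake replicate 4 and listed at 0 in the other 3 steers of that group; 3 values of 0 give this flag whatever the remaining value is. The causes were not tested.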

How the results depend on the processing

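No paired analysis was possible because steers carry no shared replicate numbers in the labels. Beside the leave-one-out fits, 274 alternative values of single keratins and 100 counts kept their direction and side of the threshold. Each difference below is on the log2(value + 0.1) scale. Genes that passed did so in limma with an adjusted p under 0.05.

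With pseudocount 1, KRT8 was at -0.03 for gain, KRT4 at -0.09 for intake, and 1 exon region of any gene passed for intake. With the mean over all exon regions, KRT14 was at -0.37 and KRT8 at -0.73 for gain, KRT8 at -0.17 for high-gain low-intake steers minus low-gain high-intake steers (the third contrast below), and 2 genes passed for intake. With regions without a first exon, KRT8 was at -0.71 for gain and -0.10 for that contrast, and 2 genes passed for intake. With the regions of the highest exon number, KRT8 was at -1.13 and -0.52. With the KRT8 symbol taken over all chromosomes, an alternative chosen after seeing the data, it was at -0.71 for gain, 0.91 for intake and -1.62 for the third contrast. Median-ratio scaling put KRT10 at 0.02 for intake and moved the median of all genes to 0.10 for intake and -0.11 for the third contrast; scaling to exon coverage moved it to 0.16 for the third contrast and -0.12 for the interaction. Exon-coverage scaling also moved the unadjusted calls for gain to 320 higher and 306 lower, against 93 and 411, and for the third contrast to 1045 and 722, against 387 and 890.

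With the first-exon index as covariate, 882 genes passed for gain, and 2 keratins were among them: KRT17 at 1.49 and KRT14 at 2.01. KRT15 was at 0.64, KRT19 at 0.86, KRT4 at 0.61 and KRT5 at 0.21 for gain. For intake KRT14 was at -0.31, KRT17 at -0.04, KRT19 at -0.75, KRT4 at -0.69 and KRT5 at -0.27. For the third contrast KRT14 was at 2.32, KRT15 at 0.55, KRT17 at 1.53, KRT19 at 1.61, KRT4 at 1.30 and KRT5 at 0.48. Without the 5 libraries low in first exons, 61 genes and 1287 exon regions of any gene passed for gain and 2 genes for the third contrast. KRT4 was then at 0.23 and KRT8 at -0.22 for gain, KRT19 at -1.06, KRT4 at -1.03 and KRT5 at -0.52 for intake, and KRT19 at 0.24, KRT4 at 1.26 and KRT5 at 0.21 for the third contrast. By Pearson's r 19 keratin pairs passed with all 16 libraries.

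Leaving out 1 library at a time, the number of genes passing was 0 to 71 for gain (71 without low-gain low-intake replicate 3), 0 to 1 for intake (1 without high-gain high-intake replicate 4) and 0 to 1 for the third contrast (1 without low-gain high-intake replicate 3), and no keratin passed. Directions changed for KRT8 (-0.53 to 0.58) and KRT14 (-0.34 to 0.72) in gain, KRT4 (-0.29 to 0.52), KRT19 (-0.28 to 0.95) and KRT5 (-0.15 to 0.31) in intake, and KRT14 (-0.87 to 0.20) in the third contrast. The causes were not tested. KRT4, KRT18 and KRT8 rest on few reads, which limits their precision.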
